A study of Mus musculus with 14 samples.

Results

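Neural progenitor genes were followed here through 9 members, Sox1, Sox3, Pax6, Zic1, Neurog1, Neurog2, Hes5, Fabp7 and Nes, chosen by name and represented by 20 of the 45101 probe sets of the array. All 9 are among the 18194 genes with a probe set of their own, and all 9 passed the filter on low signal that left 14365 genes for testing. The study measured mouse cell lines with microarrays at 2 stages. Its title concerns cell cycle exit and differentiation without the Rb gene family. Embryonic stem cells (ESC) are pluripotent cells grown undifferentiated in culture, and embryoid bodies (EB) are aggregates in which such cells differentiate without being steered to one tissue. The groups were TKO EB (5 arrays: lines 2-55-2, 14-14-4, 7-4-1, Dutch and Ta1-12), TKO ESC (3 arrays: 7-4-1, Dutch and Ta1-12), WT EB and WT ESC (3 arrays each: B21, J1 and R1 at both stages). TKO, which the labels do not spell out, was read as a triple knockout of the Rb family (Rb1, Rbl1, Rbl2), given the study's subject. Each array is 1 cell line at 1 stage, so lines are the replicates within a group. The p-values measure the spread between single arrays of different lines, in which line, culture and array cannot be told apart. Lines with both stages were not paired in the main fit. The labels give no treatment, EB age or strain.

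Neural progenitors are the dividing cells of the neural plate and neural tube that give rise to neurons and glia. Transcription factors of the SoxB1 family (Sox1, Sox2, Sox3) keep these cells undifferentiated. Proneural factors such as Neurog1 and Neurog2 start neuron formation and raise Notch ligands, and Notch signalling through Rbpj turns on Hes5 in neighbouring cells, which represses the proneural genes there. Pax6 and Zic1 mark regions of the neural plate, and Fabp7 and Nes are cytoplasmic proteins of radial glia and other progenitors. Several members are also used elsewhere: Sox2 and Sox3 in pluripotent cells, Zic1 in somites, Pax6 in eye and pancreas, and Nes in skeletal muscle precursors and endothelium. In such mixed cultures, fewer cells of a type and less RNA per cell cannot be told apart.

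The promoters of 4 members are shown because these genes carry the results below: Zic1 and Fabp7 changed most between stages, and Neurog2 and both probe sets of Hes5 had their highest signal on the same array as they did. The windows run from 250 bases before to 50 bases after the start site in RefSeq (GRCm38.p6), 5′ to 3′ on the gene's strand. They lie at chr10:57784673-57784972 (plus strand) for Fabp7, chr9:91365719-91366018 (minus strand) for Zic1, chr4:154960673-154960972 (plus strand) for Hes5 and chr3:127632886-127633185 (plus strand) for Neurog2. Capitals mark TGGGAA on either strand, the core that Rbpj binds, and CANNTG, the E-box that proneural factors and other bHLH proteins bind, which reads the same on both strands.
Fabp7: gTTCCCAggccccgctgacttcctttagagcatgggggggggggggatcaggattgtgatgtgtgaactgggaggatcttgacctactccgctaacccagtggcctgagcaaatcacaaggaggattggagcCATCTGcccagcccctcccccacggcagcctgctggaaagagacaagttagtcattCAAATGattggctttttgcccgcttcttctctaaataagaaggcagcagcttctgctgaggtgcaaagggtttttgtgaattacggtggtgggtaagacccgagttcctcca
Zic1: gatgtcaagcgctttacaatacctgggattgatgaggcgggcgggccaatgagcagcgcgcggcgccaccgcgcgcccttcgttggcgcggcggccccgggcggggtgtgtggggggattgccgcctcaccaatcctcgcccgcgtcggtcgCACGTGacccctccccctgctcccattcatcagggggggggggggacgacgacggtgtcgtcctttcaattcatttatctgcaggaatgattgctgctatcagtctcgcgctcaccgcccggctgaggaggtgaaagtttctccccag
Hes5: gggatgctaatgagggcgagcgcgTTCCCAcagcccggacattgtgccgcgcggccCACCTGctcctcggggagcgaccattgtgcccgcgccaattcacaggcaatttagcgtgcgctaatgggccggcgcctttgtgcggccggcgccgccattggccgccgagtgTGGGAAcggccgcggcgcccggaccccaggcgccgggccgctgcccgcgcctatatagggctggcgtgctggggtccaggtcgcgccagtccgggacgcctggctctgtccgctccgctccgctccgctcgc
Neurog2: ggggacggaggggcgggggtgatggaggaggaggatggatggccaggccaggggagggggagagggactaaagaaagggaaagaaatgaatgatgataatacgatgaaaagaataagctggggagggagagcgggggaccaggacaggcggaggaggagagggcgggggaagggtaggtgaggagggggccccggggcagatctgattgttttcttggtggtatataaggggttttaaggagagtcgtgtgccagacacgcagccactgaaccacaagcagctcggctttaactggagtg
Hes5 held TGGGAA 2 times, at -226 (minus strand) and -82 (plus strand) from the start site, and 1 E-box. Fabp7 held it 1 time, at -249, with E-boxes at -118 and -62. Zic1 held 1 E-box at -98, and neither set of letters was in the window of Neurog2. TGGGAA occurred in 25.6% and CANNTG in 72.3% of the 32851 promoter windows in the table, so a match is a description of the letters and no more. Of the 9 members, 8 had an entry; Sox3 is named only.

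Values are the intensities the authors deposited, on a linear scale. For the tests, intensities below 32 were raised to 32 and put on the log2 scale, so a fold change from a group under this floor is a lower limit. Arrays were alike in brightness, with median intensities from 83.2 to 107.9. The 40th percentile of an array, below which a probe set was taken as low, lay between 51.3 and 64.4. The targeted genes' signal did not separate the genotypes in every line. Rbl1, a pocket protein gene, had 31.7, 15.9, 38.3, 377.1 and 1095.9 in TKO EB 2-55-2, 14-14-4, 7-4-1, Dutch and Ta1-12, against 586.3, 1089.6 and 493 in WT EB B21, J1 and R1. It had 24.5, 250.3 and 492.5 in TKO ESC 7-4-1, Dutch and Ta1-12, against 693.8, 461.6 and 355.6 in WT ESC B21, J1 and R1. The array labelled TKO EB Ta1-12 was above each WT EB array. Rb1 spanned 300.5 to 912.8 in TKO EB, against 407.1 to 1018.4 in WT EB, and Rbl2 spanned 296.8 to 1098.7, against 722.8 to 1726.9. The labels do not say where the probes lie relative to a deletion, so a signal in TKO lines does not settle the genotype. For the 9 members and the counts over all genes, results that use the arrays labelled TKO Ta1-12 are also given without them where a call changes. Calls of other named genes and counts of the related and marker lists were not recomputed without these arrays. Over all genes, the TKO stage comparison called 5132 genes with them and 3068 without. Pou5f1, the core pluripotency factor, had 1542.2, 6132.8, 146.8, 7410.3 and 17.1 in TKO EB 2-55-2, 14-14-4, 7-4-1, Dutch and Ta1-12, against 38.8, 32.8 and 55.2 in WT EB B21, J1 and R1. It was above each WT EB array in 4 of the 5 TKO EB arrays, most in 14-14-4 and Dutch.

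In both genotypes Zic1 and Fabp7 rose in EB, where most arrays had intensities far above ESC, and no rise was called for Sox1, Sox3, Pax6, Neurog1, Neurog2 or Hes5 in either. By limma, 3 of the 9 members rose in TKO EB against TKO ESC (Zic1, Fabp7 and Nes) and 0 fell, where 20.8% of all 14365 genes rose and 14.9% fell. In WT EB against WT ESC 2 rose (Zic1 and Fabp7) and 1 fell (Sox3), where 26.2% of all genes rose and 17.4% fell. A count of 2 or 3 of 9 is near these background shares and is not a result about the list. The median log2 change of the members was 0.34 in TKO and 0.68 in WT cells, beside 0.08 and 0.13 over all genes tested. Without overlap between stages, all arrays were higher in EB for Zic1, Fabp7 and Nes in TKO cells, where 21.1% of all genes behaved so, and for Zic1, Fabp7 and Sox1 in WT cells, where 35.1% did. Zic1, Fabp7, Neurog2 and Sox1 passed the low-signal filter on 8, 8, 5 and 4 arrays, most of them EB, so their passing already favours a higher EB signal. With every gene tested and no filter, Zic1 and Fabp7 were called all the same in both genotypes.

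**Figure D1:**
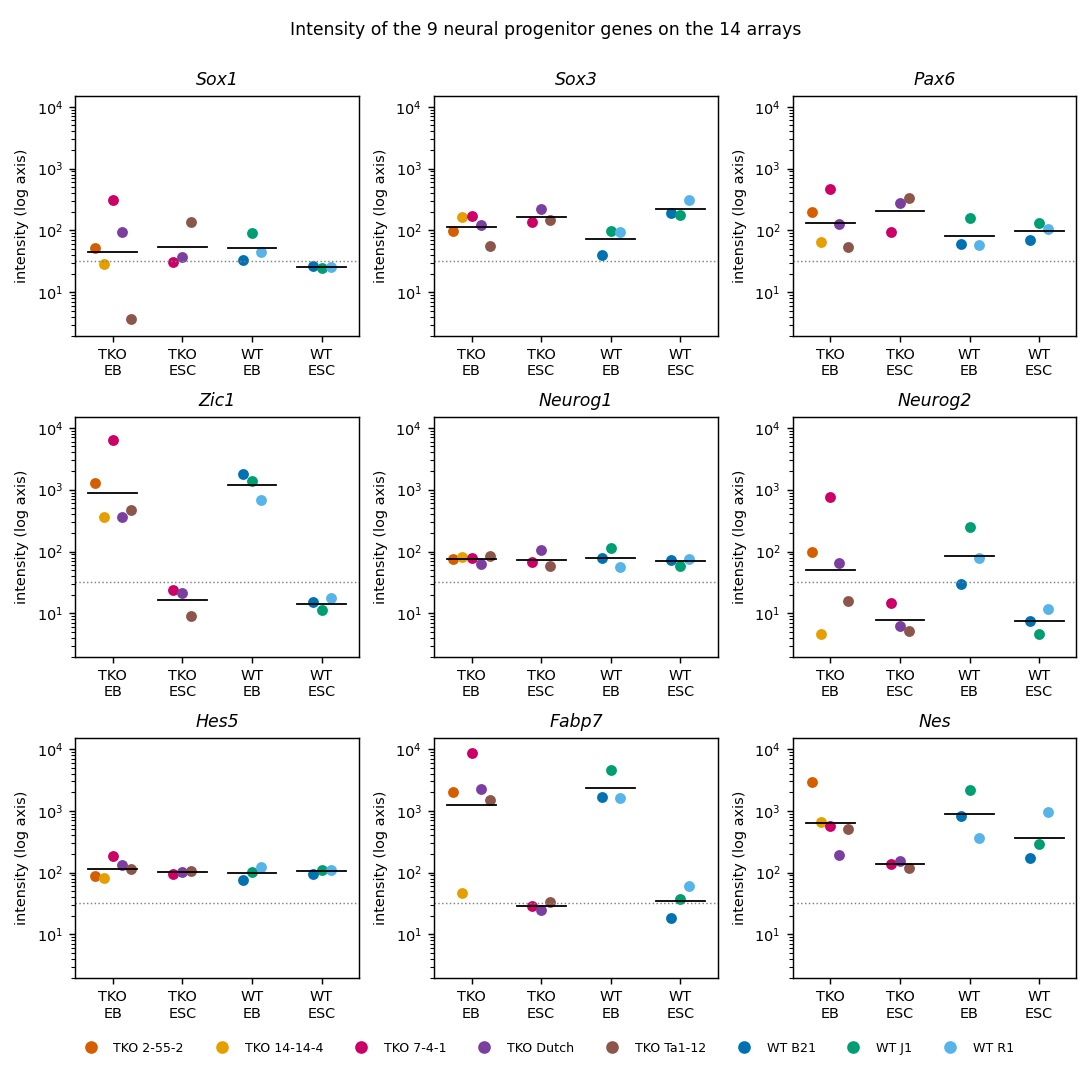
Intensity (log axis) of the probe set that stands for each member, 1 point per array, by group and coloured by cell line; the black bar is the geometric mean of the group and the dotted line the floor of 32. Zic1 and Fabp7 lie between 356 and 8665.5 in EB, except Fabp7 at 46.6 in TKO EB 14-14-4, while Neurog1 stays between 56.4 and 114.9 on all 14 arrays.

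Zic1 encodes a zinc finger factor of the dorsal neural tube and somites. Its intensity was 1278.7, 365.6, 6399.1, 356 and 472.9 in TKO EB 2-55-2, 14-14-4, 7-4-1, Dutch and Ta1-12, against 24, 21 and 9 in TKO ESC 7-4-1, Dutch and Ta1-12. Every TKO EB array was far above every TKO ESC array, and TKO EB 7-4-1 stood well above the other EB arrays. In WT EB it was 1796.9, 1381 and 684.4 in B21, J1 and R1, against 15, 11.4 and 17.6 in WT ESC of the same lines. All 6 ESC arrays lay under the floor. By limma, the log2 change was 4.77 ± 0.77 (SE; adjusted p = 0.000723; n = 5 and 3) in TKO cells and 5.22 ± 0.86 (adjusted p = 0.000788; n = 3 and 3) in WT cells, at least 27.2-fold and 37.3-fold. A second probe set, with 79.2 to 2713.6 in TKO EB and 4.5 to 15.6 in TKO ESC, had log2 changes of 2.86 ± 0.86 in TKO (limma adjusted p = 0.0213 over all probe sets) and 3.07 ± 0.96 in WT cells (adjusted p = 0.0226).

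Fabp7, brain lipid-binding protein, carries fatty acids in radial glia. Its intensity was 2023.3, 46.6, 8665.5, 2256.9 and 1508.3 in TKO EB 2-55-2, 14-14-4, 7-4-1, Dutch and Ta1-12, against 29.1, 25.1 and 33.2 in TKO ESC 7-4-1, Dutch and Ta1-12. The values were 1693.6, 4558.8 and 1581.1 in WT EB B21, J1 and R1, against 18.2, 37.7 and 61.5 in WT ESC of these lines. The stages did not overlap in either genotype, although TKO EB 14-14-4 was below the WT ESC R1 value. The change was 5.24 ± 1.19 (limma adjusted p = 0.00503) in TKO and 5.78 ± 1.33 (adjusted p = 0.00467) in WT cells on the log2 scale. Of the 2 TKO EB arrays with the highest Pou5f1, Dutch had a Fabp7 signal within the range of the other EB arrays and 14-14-4 did not. The TKO change was 6.42 without 14-14-4 (adjusted p = 3.85e-05), 5.02 without Dutch (adjusted p = 0.00766) and 6.52 without both (adjusted p = 1.78e-05).

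Nes encodes the intermediate filament protein nestin. Its intensity was 2926.5, 665.6, 566.7, 195.1 and 500.5 in TKO EB 2-55-2, 14-14-4, 7-4-1, Dutch and Ta1-12, against 137.8, 154.3 and 119.8 in TKO ESC 7-4-1, Dutch and Ta1-12. In WT EB B21, J1 and R1 it was 833.9, 2177.6 and 366, against 170.4, 286.4 and 959.7 in WT ESC. The TKO stages did not overlap, and the WT stages did, because WT ESC R1 was higher than 2 of the 3 WT EB arrays. In TKO cells Nes rose by 2.23 ± 0.79 on the log2 scale (limma adjusted p = 0.0428), and in WT cells the change was 1.28 ± 0.88 (adjusted p = 0.255). The TKO call was a narrow one. It was lost with the line as a block (1.48, adjusted p = 0.224), on leaving out both Ta1-12 arrays (2.22, adjusted p = 0.136) and when any of 9 single arrays was left out (1.68 to 2.32, adjusted p = 0.0541 to 0.118). The other Nes probe sets changed by 0.52 ± 0.30 and 0.95 ± 0.69 in TKO cells, neither past the threshold.

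In both genotypes the EB array with the highest Nes also had the highest muscle factors. Myog and Myod1 are the transcription factors of skeletal muscle precursors. Myog had 8799.1, 13.5, 2315.7, 38.7 and 298.2 in TKO EB 2-55-2, 14-14-4, 7-4-1, Dutch and Ta1-12, against 816.4, 5463.8 and 116.9 in WT EB B21, J1 and R1. Myod1 was likewise highest in TKO EB 2-55-2 (2687) and WT EB J1 (1854.6). Nes was not high only with them: TKO EB 14-14-4 had the second highest Nes of TKO EB beside the lowest Myog. All 8 genes of the list of paraxial mesoderm and muscle were above the 40th percentile in TKO EB 2-55-2 and 7-4-1, with a summed intensity of 1051 to 14437 over TKO EB, against 2912 to 3887 over TKO ESC. The sum was 1013 to 9741 over WT EB, against 2136 to 2622 over WT ESC. In ESC, Tcf15 made the larger part of it, with 2341.1 to 3352.7 in TKO and 1666.9 to 1948.1 in WT lines. Tcf15 fell in EB (-3.39 ± 0.49 in TKO and -4.3 ± 0.55 in WT cells on the log2 scale). Myog did not exceed 20 in TKO ESC and 30 in WT ESC. The part of paraxial mesoderm and muscle cells in the Nes signal was not tested. Endothelial markers, which also go with Nes in tissues, summed to 958 in TKO EB 2-55-2 and between 1447 and 5461 on the remaining TKO EB arrays, against 2139 in WT EB J1 and 1878 and 4138 in WT EB B21 and R1. Of these 6 markers, 5 were above the 40th percentile in TKO EB 2-55-2 and 5 in WT EB J1, and their part in the Nes signal was not tested.

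Neither SoxB1 member was called higher in EB. Sox3 had an intensity of 98.4, 163.6, 172.8, 123.1 and 55.2 in TKO EB 2-55-2, 14-14-4, 7-4-1, Dutch and Ta1-12, against 135, 222.4 and 146.5 in TKO ESC 7-4-1, Dutch and Ta1-12. Sox3 stood at 40.6, 98.5 and 92.7 in WT EB B21, J1 and R1, against 193.1, 179.6 and 314.8 in WT ESC. WT EB lay wholly below WT ESC, and the TKO stages overlapped. Sox3 fell by 1.63 ± 0.45 in WT EB on the log2 scale (limma change -1.63, adjusted p = 0.0121), and the TKO change was -0.53 ± 0.40 (adjusted p = 0.326). The WT call was lost without WT EB B21 (-1.22, adjusted p = 0.0594). A second Sox3 probe set lay between 15.8 and 66.3 and was above the 40th percentile on 1 array. Its related factor Sox2, shared with pluripotent cells, fell in TKO EB (-0.95 ± 0.27, adjusted p = 0.0156) and in WT EB (-1.89 ± 0.30, adjusted p = 0.000672).

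Sox1, the SoxB1 gene most restricted to the neural plate, was low on most arrays. It had 52.6, 28.9, 310.5, 95.3 and 3.7 in TKO EB 2-55-2, 14-14-4, 7-4-1, Dutch and Ta1-12, against 30.9, 37.7 and 136.3 in TKO ESC 7-4-1, Dutch and Ta1-12. In WT EB it was 32.9, 91.1 and 45.2 in B21, J1 and R1, against 26.8, 25.1 and 25.6 in WT ESC. WT EB lay above WT ESC on each array, yet the WT change of 0.68 ± 0.78 did not pass (limma adjusted p = 0.497), nor did the TKO change of 0.34 ± 0.70 (adjusted p = 0.731). Its second probe set reached no more than 23.2 on any array.

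Pax6, a paired-box factor of forebrain and spinal cord progenitors, has 5 probe sets. The brightest had 196.7, 64.5, 462.2, 126.9 and 54.9 in TKO EB 2-55-2, 14-14-4, 7-4-1, Dutch and Ta1-12, against 93, 275.8 and 335.6 in TKO ESC 7-4-1, Dutch and Ta1-12. WT intensities were 61.2, 159.2 and 57.9 in WT EB B21, J1 and R1, against 70.3, 130.9 and 107.4 in WT ESC. The stages overlapped in both genotypes, with log2 changes of -0.63 ± 0.66 (limma adjusted p = 0.479) in TKO and -0.27 ± 0.74 (adjusted p = 0.785) in WT cells. The lines went in opposite directions: Pax6 in EB was above ESC by 2.31 in TKO 7-4-1, and below it by -1.12 in Dutch and -2.61 in Ta1-12 on the log2 scale. Another Pax6 probe set gave the same order for these lines, with 150.3 in EB and 25 in ESC of 7-4-1, 34.3 and 65.6 in Dutch, and 16 and 105.4 in Ta1-12. One more stayed between 54.9 and 118.6 on all arrays, and the remaining 2 were above the 40th percentile on 1 array or fewer.

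**Figure D2:**
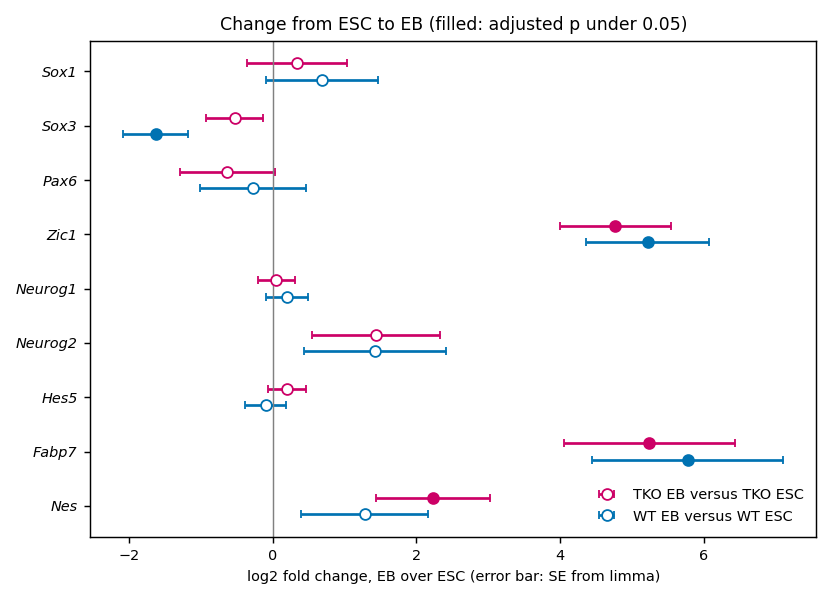
Log2 fold change of each member from ESC to EB with its SE from limma (horizontal axis), TKO above WT for each gene; filled points have an adjusted p under 0.05. Zic1 and Fabp7 lie between 4.77 and 5.78 in both genotypes, Nes is filled in TKO only and Sox3 in WT only, and the differences between genotypes were not called for any member.

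Of the proneural genes, Neurog2 was above the floor in some EB lines, and Neurog1 was about level throughout. Neurog2 had an intensity of 97.2, 4.6, 757.9, 64.3 and 15.6 in TKO EB 2-55-2, 14-14-4, 7-4-1, Dutch and Ta1-12, against 14.9, 6.2 and 5.2 in TKO ESC 7-4-1, Dutch and Ta1-12. Intensities were 29.8, 245.9 and 79.9 in WT EB B21, J1 and R1, against 7.5, 4.6 and 11.7 in WT ESC. All 6 ESC arrays were under the floor, as were 3 of the 8 EB arrays. The spread between EB lines was as large as the change, which was 1.44 ± 0.89 in TKO (limma adjusted p = 0.226) and 1.42 ± 0.99 in WT cells (adjusted p = 0.259) and did not pass. Neurog1 stayed within 56.4 to 114.9 on all 14 arrays, with changes of 0.05 ± 0.26 and 0.20 ± 0.29 in TKO and WT cells, and its other probe set did not exceed 44.3.

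Hes5, the Notch target, gave different pictures in its 2 probe sets. The brighter on average, which stands for the gene, had 81.9 to 184.9 in TKO EB and 94.8 to 105.3 in TKO ESC, and 75.2 to 124.4 in WT EB and 94.9 to 112.1 in WT ESC. Its changes were 0.20 ± 0.26 (limma adjusted p = 0.583) in TKO and -0.10 ± 0.29 (adjusted p = 0.8) in WT cells. The other had 60.7, 12.7, 704.9, 87.1 and 19.2 in TKO EB 2-55-2, 14-14-4, 7-4-1, Dutch and Ta1-12, against 30.2, 46.9 and 52.1 in TKO ESC 7-4-1, Dutch and Ta1-12. This probe set had 24.7, 93.9 and 56.1 in WT EB B21, J1 and R1, against 42.7, 57.5 and 51.7 in WT ESC. The array TKO EB 7-4-1 alone was far above the rest, while ESC of this line had 30.2, the lowest of TKO ESC. This probe set did not pass either, with 0.95 ± 0.80 in TKO (limma adjusted p = 0.371) and 0.14 ± 0.89 in WT cells (adjusted p = 0.916). Both probe sets were highest in TKO EB 7-4-1.

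No member was called between genotypes at either stage. Between TKO EB (n = 5) and WT EB (n = 3) limma called 0 of 9 members and 0% of all genes, with 2034 genes at an unadjusted p under 0.05. That share rests on the array labelled TKO EB Ta1-12: without it 1422 genes were called, and without both Ta1-12 arrays 1101, with 0 of 9 members among them. The log2 differences ran from -0.91 ± 1.19 for Fabp7 to 0.68 ± 0.66 for Pax6, all with an adjusted p of 0.45 or more. The Fabp7 difference turned to 0.27 without TKO EB 14-14-4 (adjusted p = 0.866). Between TKO ESC and WT ESC, 0 of 9 members and 0% of all genes were called, with 394 genes at an unadjusted p under 0.05. Nes was lower on each TKO ESC array than on each WT ESC array (-1.40 ± 0.88, adjusted p = 1), and Pax6 differed by 1.04 ± 0.74 (adjusted p = 1). The change from ESC to EB was also compared between genotypes. For 0 of 9 members and 0% of all genes was this difference called, with 522 genes at an unadjusted p under 0.05. It was 1.10 ± 0.61 for Sox3 (adjusted p = 0.975), whose fall passed in WT cells and not in TKO cells, 0.95 ± 1.18 for Nes, -0.45 ± 1.15 for Zic1 and -0.53 ± 1.79 for Fabp7. With standard errors of this size, the missing calls do not show that the genotypes act alike.

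**Figure D3:**
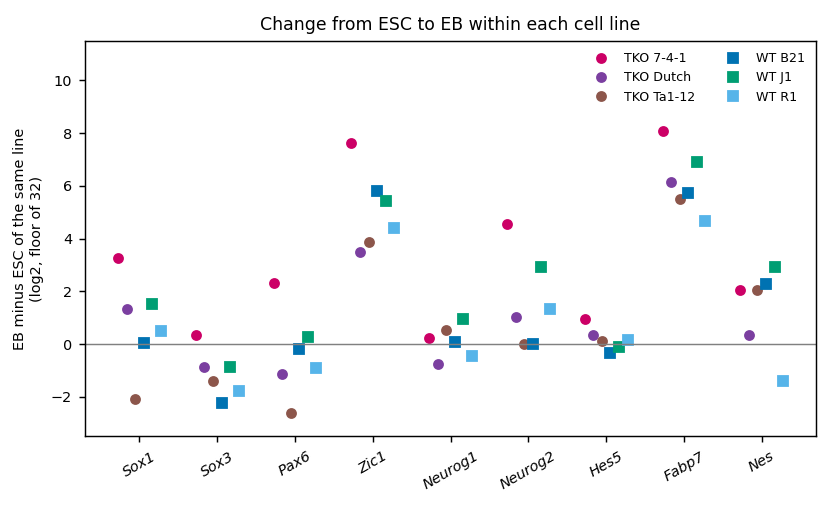
EB minus ESC on the log2 scale (floor of 32) for each of the 6 lines measured at both stages, TKO lines as circles and WT lines as squares. Zic1 and Fabp7 lie above 3 in every line, whereas Pax6 runs from -2.61 in Ta1-12 to 2.31 in 7-4-1 and Nes from -1.39 in R1 to 2.93 in J1.

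Single EB arrays stood out within each genotype. With 1 array per line and stage, a trait of the line cannot be told from one of that culture or array. Of the 8 EB arrays, TKO EB 7-4-1 had the highest signal for 7 of 9 members (Sox1, Sox3, Pax6, Zic1, Neurog2, Hes5 and Fabp7), where it was the highest for 17.3% of all genes tested. This array was singled out after its values were seen, and the counts are a description. Its level over the next highest EB array was 3.56-fold for Zic1, 3.26-fold for Sox1, 3.08-fold for Neurog2, 2.35-fold for Pax6, 1.90-fold for Fabp7, 1.41-fold for Hes5 and 1.06-fold for Sox3. The Pax6 probe set above the 40th percentile on all 14 arrays was not high on TKO EB 7-4-1 (78.2, against a median of 93.6 on the other EB arrays). Among the WT EB arrays, J1 was the highest for 7 of 9 members (Sox1, Sox3, Pax6, Neurog1, Neurog2, Fabp7 and Nes), and for 36.7% of all genes. J1 too was singled out after its values were seen, and its lead was small for Sox3 (98.5, against 92.7 in R1). Neurog2 was at 757.9 in 7-4-1 and 245.9 in J1, against 4.6 to 97.2 in the other EB arrays. Without TKO EB 7-4-1, the TKO changes still passed for Zic1 and Fabp7.

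Most neuron genes were high in the same EB arrays. Of the 12 tested genes of the neuron list, 9 were highest in TKO EB 7-4-1, where 17.3% of all genes tested were. The others were highest in WT EB J1 (Isl1 at 2375.1 and Syt1 at 195.1) or WT EB R1 (Nefl at 1482.1). Nhlh2, a bHLH factor of newborn neurons, had 106.7, 10.9, 1635.3, 58.3 and 10.2 in TKO EB 2-55-2, 14-14-4, 7-4-1, Dutch and Ta1-12, against 23.1, 243.5 and 42.3 in WT EB B21, J1 and R1. Map2, a dendrite protein, had 487.9, 44.9, 3028.5, 139.9 and 229 in these TKO EB and 228, 795.7 and 228.6 in these WT EB. Over the neuron list, intensities summed to 18751 on TKO EB 7-4-1 and to between 1740 and 6107 on the remaining TKO EB arrays, against 9603 in WT EB J1 and 2091 and 3674 in WT EB B21 and R1. In ESC the same sum was 10687 to 12176 in TKO and 11280 to 14778 in WT lines, of which Stmn2, a tubulin regulator, made the larger part. Stmn2 fell in TKO EB (-2.97 ± 1.00, limma adjusted p = 0.0343) and in WT EB (-4.97 ± 1.11, adjusted p = 0.00406), and Isl1, a factor of motor neurons that heart and foregut also use, rose in both (4.22 ± 0.53 and 4.83 ± 0.60). Over the list 1 gene rose and 1 fell in each genotype, below the 20.8% and 26.2% of all genes that rose in TKO and WT EB, with a median change of 0.46 in TKO and 0.16 in WT cells.

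**Figure D4:**
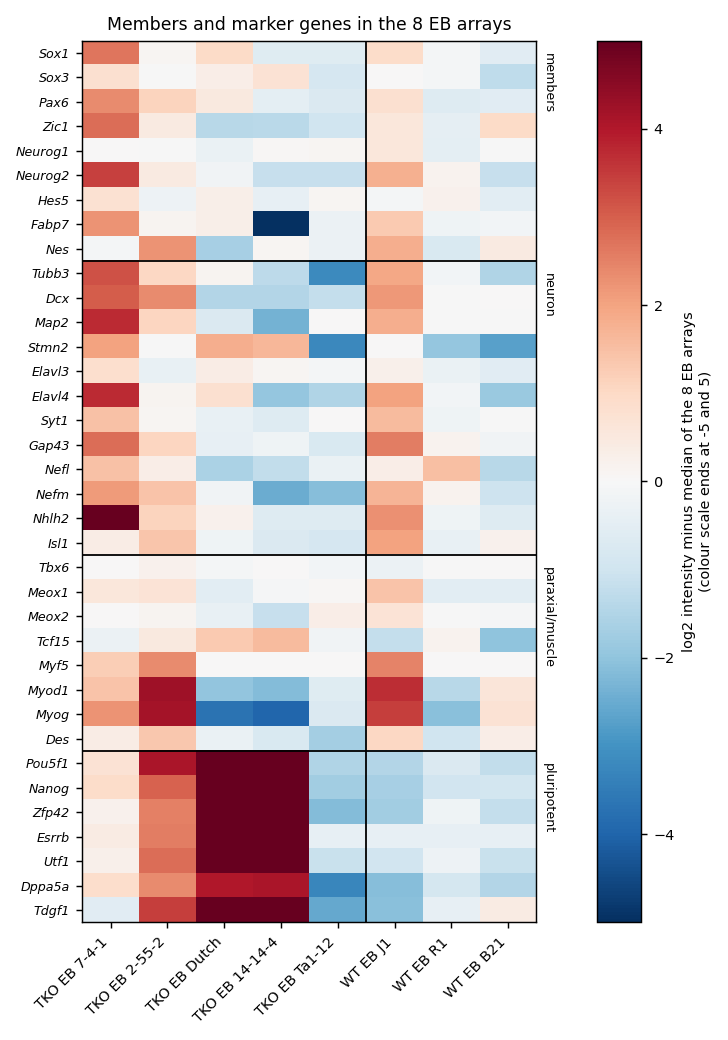
Log2 intensity (floor of 32) of the members, of tested neuron genes, and of markers of paraxial mesoderm and muscle and of pluripotent cells in each EB array, as the difference from the median of the 8 EB arrays. TKO EB 7-4-1 and WT EB J1 are high for most members and neuron genes, and TKO EB 2-55-2 and WT EB J1 for Nes, Myod1 and Myog. TKO EB Dutch, 14-14-4 and, to a lesser degree, 2-55-2 are high for pluripotency markers.

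Signals of other cell types moved between the same arrays. The 7 markers of pluripotent cells summed to 12805, 49694, 3086, 61844 and 290 on TKO EB 2-55-2, 14-14-4, 7-4-1, Dutch and Ta1-12, and to between 506 and 1186 on the WT EB arrays. Both arrays with the highest sums had the lowest Zic1 of the 8 EB arrays (356 and 365.6), while the array labelled TKO EB Ta1-12, with the lowest sum, had Zic1 at 472.9 and the lowest Sox1 and Pax6 of the 8 EB arrays. Markers of lens and surface ectoderm, which can hold Pax6, summed to 6058 to 49549 over TKO EB, lowest in 7-4-1, against 35240 to 43275 over WT EB. The keratin genes Krt8, Krt18, Krt14 and Krt15 made the larger part of this sum on each EB array. Of the lens genes, Cryab reached 3342.9 in TKO EB and 5954.6 in WT EB, Cryaa 260 and 1920, Prox1 109.4 and 75.1, and Foxe3 6.7 and 1. Markers of pancreatic endocrine cells summed to no more than 325 in TKO EB and 392 in WT EB, with at most 2 of 6 above the 40th percentile. Neural crest markers summed to 2762 to 6415 over TKO EB, against 2928 to 6680 over WT EB, highest in 7-4-1 and J1. On TKO EB 7-4-1, Snai2 (3865.1) made the larger part of this sum. Of the 8 EB arrays, this one had the highest Tfap2a, Tfap2b and Ednrb, and the lowest Sox10 (96.9) and Erbb3 (282.5). Of the 8 tested markers of that list 2 rose and 1 fell in TKO EB, where 20.8% of all genes rose and 14.9% fell. In WT EB 1 rose and 1 fell, where 26.2% of all genes rose and 17.4% fell. These counts are not a result about the list. Snai2, a factor of migrating crest and mesenchyme, rose in both (4.92 ± 0.45 in TKO, limma adjusted p = 2.5e-05, and 4.87 ± 0.50 in WT cells, adjusted p = 8.17e-05). Tfap2a, which surface ectoderm shares, rose in TKO EB (1.33 ± 0.45, adjusted p = 0.0356) and had 1.22 ± 0.50 in WT cells (adjusted p = 0.0651). Foxd3, which ESC also use, fell in both (-2.70 ± 0.52 and -1.89 ± 0.59), and Sox10 did not pass in either (-0.36 ± 0.32 and 0.01 ± 0.35). The part of these cells in the members' signal was not tested.

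Related genes of the pathway were counted from lists chosen by function, and each count stands beside the shares over all genes, 20.8% higher and 14.9% lower in TKO EB and 26.2% higher and 17.4% lower in WT EB. Of 15 tested proneural and Notch genes, 5 rose and 3 fell in TKO EB (median change 0.30), and 3 rose and 4 fell in WT EB (median 0.14), so the WT count of higher genes is not above that of all genes. The receptor Notch2 rose by 1.69 ± 0.33 in TKO (limma adjusted p = 0.00233) and 1.40 ± 0.37 in WT cells (adjusted p = 0.0096), and Hes1, a Notch target used in many tissues, by 1.17 ± 0.28 and 1.25 ± 0.31. Notch3 rose by 1.28 ± 0.29 in TKO EB (adjusted p = 0.00504). In WT EB its change was 0.11 ± 0.32 (adjusted p = 0.793). The proneural gene Neurod1 fell in TKO EB (-3.19 ± 0.84, adjusted p = 0.011) and in WT EB (-3.35 ± 0.94, adjusted p = 0.0124). The ligand Dll3 also fell in both, with -1.39 ± 0.45 in TKO (adjusted p = 0.0285) and -1.97 ± 0.50 in WT cells (adjusted p = 0.00779). Neurog3 had -0.50 ± 0.34 in TKO EB (adjusted p = 0.28) and fell in WT EB (-1.70 ± 0.39, adjusted p = 0.00424). Of 4 tested SoxB and Zic relatives, Sox2 and Zic5 fell in both genotypes, Zic5 by -1.89 ± 0.69 in TKO and -3.27 ± 0.77 in WT cells. Sox21 and Zic2 did not pass in either, with changes of 0.97 ± 0.54 and -0.67 ± 0.84 in TKO and 1.55 ± 0.60 and -1.42 ± 0.94 in WT cells.

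Of 18 tested transcription factors of the neural plate and its regions, 5 rose and 1 fell in TKO EB (median 0.66), and 8 rose and 2 fell in WT EB (median 0.87), against the same 20.8% and 26.2% higher over all genes, which the TKO count is near. Meis1 and Meis2, Hox cofactors used in hindbrain, limb and heart, rose by 5.39 ± 0.58 and 4.49 ± 0.48 in TKO and by 5.75 ± 0.64 and 4.78 ± 0.53 in WT cells. Irx3 rose by 3.18 ± 0.55 in TKO and 3.12 ± 0.61 in WT cells, and Gbx2, a hindbrain gene also used by ESC, fell (-4.12 ± 0.38 and -1.90 ± 0.42). Of 13 structural genes of progenitors and radial glia, 6 rose and 1 fell in TKO EB (median 1.40), and 7 rose and 1 fell in WT EB (median 1.87). Ptn, a secreted growth factor, rose by 7.61 ± 0.55 in TKO and 7.07 ± 0.61 in WT cells, Vim by 2.02 ± 0.26 and 1.87 ± 0.29, and the adhesion gene Ncam1 by 2.63 ± 0.46 and 2.85 ± 0.52. The membrane glycoprotein Gpm6b rose by 4.07 ± 0.76 in TKO and 3.51 ± 0.85 in WT cells, and its relative Gpm6a by 3.67 ± 0.85 and 4.76 ± 0.95. By limma, the adjusted p of the genes named in these 2 lists was 0.0061 or less in both genotypes. Several of these genes serve in mesenchyme too, and these lists were not tested as lists.

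The genes with the profile most like each member differed from member to member. Likeness is Pearson's r of floored log2 values over the 14 arrays, which share lines between stages, and it is given as a description. Neurog2 was followed most closely by Dcc (0.987), Nhlh2 (0.978) and Nsg2 (0.975), and Sox1 by Insm1 (0.888), Rfx4 (0.886) and Tvp23a (0.859). For Pax6 these were Tspoap1 (0.854), Map1b (0.843) and Rbmxl1 (0.841). Zic1 was most like Bmp5 (0.989), Fat4 (0.987) and Hoxb2 (0.986), and Fabp7 most like Sostdc1 (0.975), Mfap2 (0.967) and Actc1 (0.966). Zic1 and Neurog2 were under the floor on every ESC array, so their r also carries the step between stages. Over the 8 EB arrays alone, Zic1 was most like Oscp1 (0.976), Ro60 (0.972) and Adgrb2 (0.97). Fabp7 was then most like Zmym5 (0.978), Ggnbp2 (0.965) and Lepr (0.962), while Dcc stayed among the closest to Neurog2 (0.984). Pax6 was then most like Chga (0.98), a gene of the pancreatic endocrine list, Tspoap1 (0.978) and Bok (0.977). Nes was then most like Bin1 (0.983), Iffo1 (0.966) and Tnnt3 (0.946). Over the 14 arrays, Nes was most like Fat1 (0.926), Sec24b (0.917) and Chrnb1 (0.915), the last a subunit of the muscle acetylcholine receptor. Sox3 was over these 14 arrays most like Hoxa5 (0.933), Sost and Depdc1b (both 0.927), Hes5 most like Nfya (0.941), and Neurog1 most like Bpgm (0.84). Among members over the 8 EB arrays, r was 0.923 for Sox1 with Neurog2, 0.906 for Pax6 with Sox1 and 0.895 for Pax6 with Neurog2, and without TKO EB 7-4-1 it was 0.789, 0.763 and 0.745. For Zic1 with Sox1 it was 0.655, and 0.042 without 7-4-1. Nes had -0.069 with Sox1 and 0.376 with Zic1, and 0.036 and 0.727 without 7-4-1.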

How the data were processed

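Per the labels' protocols, RNA was isolated with Trizol and biotin-labelled for Affymetrix arrays. The authors' deposited table holds intensity values on a linear scale, summarised by the authors to 45101 probe sets on each of 14 arrays. Their background correction and scaling are not stated in these sources, and the number of arrays limits the precision. Of the probe sets, 34958 had 1 gene symbol in the platform annotation, 932 several and 9211 none; 34754 symbols were matched by Entrez ID to RefSeq (GRCm38.p6) and 0 changed. Values were floored at 32 and put on the log2 scale. The probe set with the highest mean stood for a gene, and genes above the 40th percentile of the array on at least 3 arrays (14365) were tested with limma 3.58.1 in R 4.3.3 (1 mean per group over all 14 arrays, contrasts, eBayes with trend). P-values were adjusted by Benjamini-Hochberg over all genes in each of 5 comparisons, with a threshold of 0.05. Errors of log2 changes are standard errors from this fit.

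Groups came from the sample titles, and line names pair ESC and EB arrays of 6 lines. Between the stages of 1 line, deviations from the mean of the group correlated at -0.046 (B21), -0.078 (J1), -0.037 (R1), 0.066 (7-4-1), 0.196 (Dutch) and 0.09 (Ta1-12). The fit with the line as a block is an alternative. Other alternatives were the floor, quantile normalization, the filter, all probe sets one by one, only the groups compared, array weights and leaving out arrays. The procedure was tested on simulated data. Named genes were all members, up to 4 genes of each related list with the smallest adjusted p in either comparison of stages, the 3 most similar genes of each member, and the targeted genes. Markers of neural crest, muscle, lens and surface ectoderm and pluripotent cells were named outside this rule, and not every gene of those lists is named. Muscle and neuron genes shown per array were chosen after their values were seen. The members and lists were chosen with earlier results of these data known.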

Additional observations from a re-analysis of the deposited data

Results flagged for a closer look

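Chance meets Dixon's criterion (gap over range above 0.71) in about 1 of 20 groups of normally distributed values. All 20 member probe sets were screened by it on the intensity scale and the floored log2 scale. In TKO EB, the 1 group with more than 3 arrays, single arrays stood apart from the other 4. On the intensity scale these were line 7-4-1 for Zic1 (6399.1, next 1278.7, and 2713.6, next 257.1, in the second probe set), Neurog2 (757.9, next 97.2), Fabp7 (8665.5, next 2256.9) and the second Hes5 probe set (704.9, next 87.1). Line 2-55-2 stood apart for Nes (2926.5, next 665.6). No probe set that stood apart on the intensity scale did so on the floored log2 scale, which was used for the tests. On that scale, dim probe sets of Pax6 (41.3, next 32.3) and Neurog1 (44.3, next 20.4) stood apart in line 7-4-1, where the floor sets the spread of the others.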

How the results depend on the processing

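Under 26 alternatives, the members' 1133 recomputed changes included 0 reversals, 15 lost calls and 0 gained ones; 70 further values that passed under neither setting changed sign. Of the lost calls, 14 belonged to Nes in TKO EB against TKO ESC and 1 to Sox3 in WT cells. Zic1 kept its call in both genotypes under each alternative run (leaving out single arrays: 4.05 to 5.09 in TKO and 4.93 to 5.62 in WT cells), as did Fabp7 (4.54 to 6.42 and 5.28 to 6.05). Nes also lost its call with a floor of 64 (adjusted p = 0.0535), quantile normalization (0.0536) and no filter (0.0759). With the line as a replicate block on 12 arrays, 2 members were called in TKO and 3 in WT cells, and that paired fit changed no other member's call than that of Nes; it cannot be had for TKO against WT. Leaving out single arrays, 2 to 3 members were called in either comparison of stages and 0 in the other 3 comparisons. Over all genes, the TKO stage comparison called 5132 genes, 3161 with the line block and 3068 without line Ta1-12. TKO EB against WT EB called 0 genes, but 1101 without line Ta1-12 and 1422 without its EB array alone, 8 with a floor of 64 or array weights, and 2 without WT EB R1, with 0 members among them. TKO ESC against WT ESC called 697 with array weights and at most 5 otherwise, and the difference between changes 26 without TKO EB Ta1-12 and at most 5 otherwise; 0 members were among these. Testing all probe sets one by one called 10897 probe sets in TKO and 12556 in WT cells. Quantile normalization gave a median change of all genes of -0.04 in TKO and -0.07 in WT cells, beside 0.08 and 0.13 as deposited. It called 2615 genes higher and 2767 lower in TKO EB (2987 and 2145 as deposited) and 3026 higher and 3478 lower in WT EB (3767 and 2493), and Zic1, Fabp7 and Sox3 kept their calls.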
